A study of Homo sapiens with 6 samples.

Results

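The genes of the DNA replication machinery were followed in SW480 cells, an established human colorectal adenocarcinoma line, after knockdown of the transcription factor ZEB1. The set held 45 genes, chosen for the part each plays at the replication fork and matched by gene symbol, among 32029 genes listed in the count tables. Each of the 45 symbols matched 1 listed gene, and all 45 were among the 14996 genes with enough counts to be tested. The samples formed a control and a knockdown group: 3 cultures transfected with control siRNA (siNC, genotype WT in the labels) and 3 transfected with siRNA against ZEB1 (siZEB1, genotype ZEB1 knockdown), each taken for RNA sequencing 48 h after transfection. Both groups were the same parental cells and both received siRNA, and the knockdown was transient, so ZEB1 mRNA was lowered and not removed. The 3 samples of a group were biological replicates by the methods of the study, with no further account of how the cultures were separated, so the p-values measure the spread between these samples. The question addressed was how far the mRNA of each complex of the replication machinery differed between control cells and ZEB1-knockdown cells.

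Replication of the genome proceeds through a fixed order of protein assemblies. The origin recognition complex marks origins, and CDC6 and CDT1 then load the ring of MCM proteins around DNA, a step that geminin holds back. CDC45 and the GINS complex turn the loaded ring into the active helicase. Polymerase alpha with primase starts each strand, polymerase epsilon and polymerase delta extend the leading and lagging strands, and the sliding clamp PCNA, placed by the clamp loader RFC, holds them on the template. RPA covers single-stranded DNA, FEN1 and LIG1 finish the Okazaki fragments, and ribonucleotide reductase, thymidylate synthase and thymidine kinase supply deoxynucleotides. Many of these genes are known targets of E2F factors and rise together when cells enter S phase.

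Of the 45 replication genes, 13 rose and 5 fell in the siZEB1 group at an adjusted p under 0.05 (edgeR's quasi-likelihood test, Benjamini-Hochberg over all genes tested), and 27 did not pass. The 18 genes called were 40% of the set, against 40.2% of all genes tested. Those that rose were 28.9% of the set against 19.0% of all genes, and those that fell were 11.1% against 21.2%. The share of replication genes called was thus close to that of all genes. Without siZEB1 replicate 1 the count of falls was 3 in place of 5. Changes were small: the median absolute log2 fold change was 0.09 in the set and 0.25 over all genes tested, which were not matched to the set by level. The median signed log2 fold change was 0.06 against -0.01. Leaving out 1 culture moved this median of the set to between 0.04 (without siZEB1 replicate 2) and 0.09 (without siZEB1 replicate 3). Only 2 replication genes were both called and changed by more than 1.5-fold, ORC6 upwards and POLD3 downwards, whereas 14.9% of all genes tested met both conditions. In 22 of the 45 genes (48.9%) the 3 control values and the 3 knockdown values did not overlap, against 49.5% of all genes. Because RNA was taken from whole cultures, a different number of cells of a type, such as cells in S phase, and a different amount of RNA per cell cannot be told apart.

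**Figure D1:**
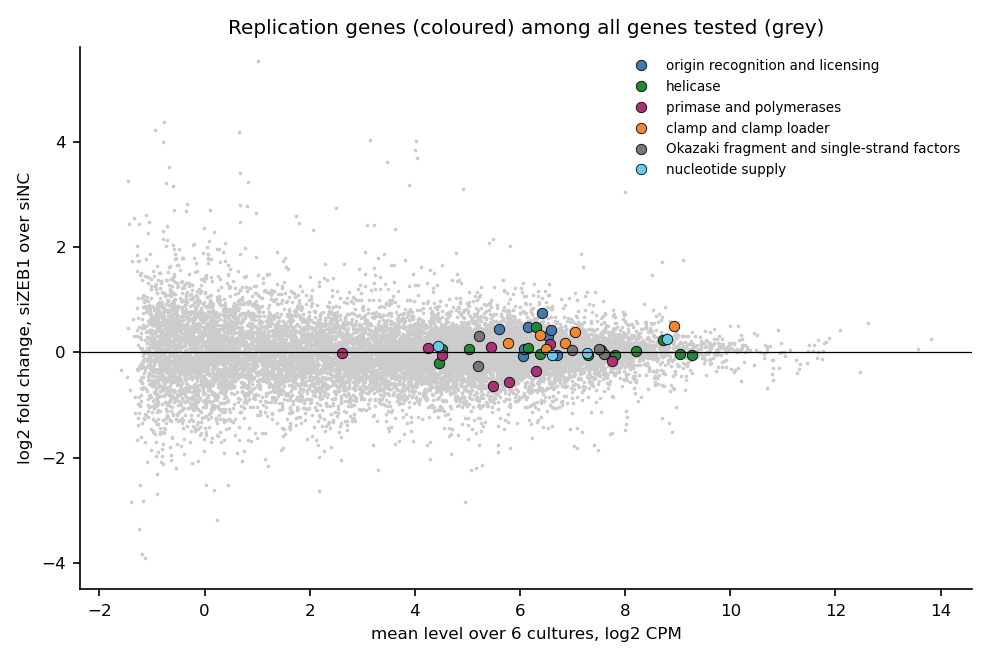
Log2 fold change of siZEB1 over siNC (y axis) against mean level over the 6 cultures in log2 CPM, on a counts-per-million scale (x axis) for the 14996 genes tested, with the 45 replication genes coloured by role. The replication genes lie between -0.64 (POLD3) and 0.75 (ORC6) on the log2 scale, a narrow band within the scatter of all genes.

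By role, the calls were uneven. The origin recognition and licensing genes showed 5 rises among 9, the clamp and its loader 4 rises among 6, the primase and polymerases 4 falls among 9, and the helicase 2 rises among 12. The median log2 fold change of these 4 groups was 0.31, 0.26, -0.04 and 0.00 in that order. The factors for Okazaki fragments and single-stranded DNA had 1 rise and 1 fall among 5, and the nucleotide supply genes 1 rise among 4. The rises were 55.6% of the licensing genes, 66.7% of the clamp group and 16.7% of the helicase, against 19.0% of all genes tested. The falls were 44.4% of the primase and polymerases, against 21.2% of all genes tested. The clamp and polymerase shares count RFC3 and POLD2, whose calls were each kept in only 5 of 13 alternative fits. DESeq2 gave 3 falls among the primase and polymerases, and limma-voom 4. These counts and shares describe small groups, and no difference between roles was tested.

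**Figure D2:**
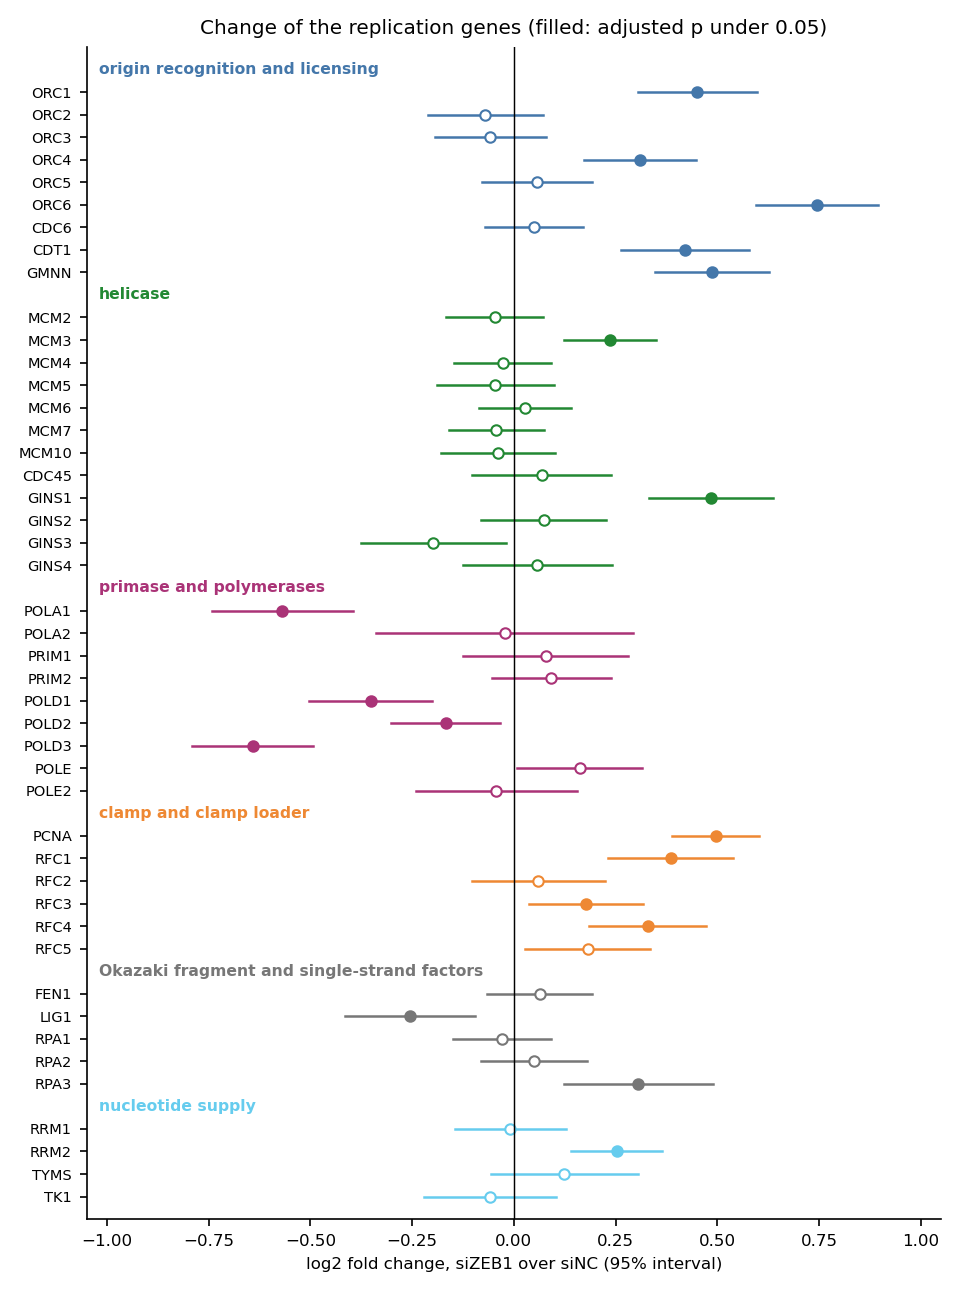
Log2 fold change of siZEB1 over siNC for each replication gene with its 95% interval (3 cultures per group), grouped by role, with filled points for an adjusted p under 0.05. Filled points lie to the right of 0 among licensing and clamp genes and to the left of 0 among the polymerases, while 10 of the 12 helicase genes have open points.

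The knockdown was present in every siZEB1 culture. ZEB1 itself had 1247, 1276 and 908 counts in the siNC cultures and 136, 132 and 162 in the siZEB1 cultures, which is -2.85 ± 0.11 (SE) as a log2 fold change (edgeR, adjusted p = 4.85e-12). Total counts per culture lay between 19040636 and 22357633, and mitochondrial transcripts took 3.75% to 4.03% of counts in siNC and 3.598% to 3.664% in siZEB1. Of 11 genes taken as markers of a colorectal epithelial line, 10 were listed (not CDX1), 8 were at 1 CPM or more in every culture, and CDH17 and LGR5 were under 1 CPM. Their summed level was 5110 to 5732 CPM in siNC and 5651 to 6327 CPM in siZEB1, a sum that overlapped between groups although single markers changed greatly: of 9 tested, 4 rose and 2 fell, all by more than 1.5-fold, with EPCAM at 3.05, VIL1 at 2.34, KRT19 at 1.62, CDX2 at -1.30 and LGR5 at -1.98 on the log2 scale. Of 12 markers of other cell types, 10 were listed (not PTPRC and DCN) and 7 were under 1 CPM in every culture, while PECAM1 and COL1A1 were above it. Their summed level was 12.4 to 14.0 CPM in siNC and 9.56 to 12.3 CPM in siZEB1. The part of these marker changes in the replication genes was not tested.

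The promoters of these genes were read from RefSeq as windows of 300 bases, 250 before the transcription start and 50 after it, on GRCh38.p14. This start is that of RefSeq, and it can differ from the gene positions of GENCODE 29 given below. A window was found for 39 of the 45 genes and none for MCM4, MCM5, GINS4, POLD3, RPA2 and RPA3. The E2F-type motif, searched as TTTCCCGC, TTTCGCGC, TTTGCCGC or TTTGGCGC on both strands, was found for 19 of the 39 genes (48.7%), against 3.99% of all 27305 genes with a window and 6.63% of the tested genes with one. Among the 19 genes, 6 rose, 2 fell and 11 were not called. The E-box CAGGTG, the sequence that ZEB1 is known to bind, was found for 5 of the 39 genes (12.8%), against 24.1% of all genes with a window. Those 5 were ORC4, RFC1 and RFC4, which rose, and RRM1 and TYMS, which were not called. The CCAAT box (CCAAT) was found for 24 genes (61.5% against 39.7%), the GC box (GGGCGG) for 29 (74.4% against 48.3%, and 77.0% of tested genes) and the CHR-type motif (TTTGAA) for 1 (2.56% against 18.2%), RRM1. All motifs were searched on both strands, and a match describes letters in the window and not a bound site.

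Among the origin recognition and licensing genes, the mRNAs of ORC6, GMNN, ORC1, CDT1 and ORC4 rose, by 1.24-fold to 1.68-fold. None of the 9 fell, where 21.2% of all genes tested did. The count of falls was 0 with edgeR at an unadjusted p under 0.05, with DESeq2 and with limma-voom. ORC6, the smallest subunit of the origin recognition complex, is on chromosome 16 (46689643 to 46698394, plus strand, ENSG00000091651; positions follow GENCODE 29, GRCh38). Its level was 69.5, 62.9 and 59.4 CPM in the siNC cultures and 103.1, 108.7 and 109.8 CPM in the siZEB1 cultures. Every knockdown culture lay well above every control culture. This was the largest rise in the set, at 0.75 on the log2 scale (SE 0.07, adjusted p = 3.08e-07). Its promoter is shown because ORC6 led the rises without an E2F-type match, with CCAAT boxes on either strand in capitals.
ORC6, chr16:46689409-46689708, plus strand: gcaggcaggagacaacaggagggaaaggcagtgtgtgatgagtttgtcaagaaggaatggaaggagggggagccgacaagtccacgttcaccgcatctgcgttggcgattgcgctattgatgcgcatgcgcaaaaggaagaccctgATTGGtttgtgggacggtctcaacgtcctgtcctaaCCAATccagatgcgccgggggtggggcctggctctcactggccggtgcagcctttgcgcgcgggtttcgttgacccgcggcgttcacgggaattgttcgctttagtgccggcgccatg

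GMNN encodes geminin, which binds CDT1 and blocks a second round of licensing. It stood at 59.7, 59.2 and 57.8 CPM in siNC and 82.8, 86.7 and 78.2 CPM in siZEB1, with tight control values and no overlap (log2 fold change 0.49, SE 0.07, adjusted p = 1.81e-05). CDT1, the loading factor that geminin restrains, rose with it, from 82.7 ± 6.15 to 110.6 ± 8.87 CPM (SD, n = 3; log2 fold change 0.42, adjusted p = 2.44e-04). The ratio of CDT1 to GMNN, each per kilobase of exon, was 1.04 ± 0.10 in siNC and 0.995 ± 0.093 in siZEB1 (SD, n = 3), with overlapping cultures (exact permutation test, two-sided, p = 0.7). Thus the loading factor and its inhibitor both rose, and their ratio did not differ beyond the spread of the cultures. The size of the ratio depends on the length used. By longest transcript, CDT1 was at 25.5 ± 1.90 and GMNN at 46.7 ± 0.79 CPM per kilobase in siNC.

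ORC1, the ATPase subunit whose level is known to follow the cell cycle, rose from 40.8 ± 1.36 to 55.8 ± 1.68 CPM (SD, n = 3; log2 fold change 0.45, adjusted p = 5.79e-05). ORC4, another ATPase-like subunit, rose from 82.5 ± 3.34 to 102.2 ± 4.39 CPM (log2 fold change 0.31, adjusted p = 0.00107). The remaining subunits ORC2, ORC3 and ORC5 and the loading ATPase CDC6 were not called, with log2 fold changes between -0.07 and 0.06 and adjusted p-values between 0.434 and 0.515. Of these 4, only ORC5 had non-overlapping groups, at 65.9 to 66.5 CPM in siNC and 67.4 to 70.1 CPM in siZEB1. The subunits of the complex thus moved unequally. Per kilobase of exon, ORC6 made up 15.6% ± 0.65 of the summed ORC1 to ORC6 level in siNC and 22.3% ± 0.59 in siZEB1 (SD, n = 3), while ORC3 went from 30.3% ± 0.64 to 24.9% ± 0.45. In all 6 subunits the shares of the groups did not overlap, and each exact permutation test gave p = 0.1, the smallest that 3 against 3 cultures allow. The shares are parts of the same total and not separate results. A larger share of ORC6 lowers the others, and the levels of ORC2, ORC3 and ORC5 themselves were not called. The sizes of the shares also depend on the length used. By longest transcript, ORC6 and ORC3 were at 34.9 and 42.4 CPM per kilobase in siNC and at 58.5 and 40.8 in siZEB1. The ORC4 promoter is shown for its E-box, in capitals, in a stretch of 81 bases.
ORC4, chr2:148020688-148020768, minus strand: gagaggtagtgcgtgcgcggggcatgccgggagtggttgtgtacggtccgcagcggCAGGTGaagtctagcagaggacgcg

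In the helicase, the mRNAs of the MCM ring stayed close to their control levels apart from MCM3, and of the GINS complex only GINS1 rose by this test. MCM3 and GINS1 were the 2 genes called among 12 (16.7%, against 40.2% of all genes tested). No helicase gene fell, where 21.2% of all genes tested did. The count was 0 with edgeR, DESeq2 and limma-voom, with 1 (GINS3) at an unadjusted p under 0.05. MCM3, a ring subunit, was at 368.2, 397.0 and 398.6 CPM in siNC and at 458.2, 464.7 and 447.6 CPM in siZEB1. The groups were apart, by 0.24 on the log2 scale (SE 0.05, adjusted p = 0.00204).

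The other 5 ring subunits had overlapping groups. MCM2 was at 232.7, 234.3 and 219.5 CPM in siNC and 219.5, 226.6 and 218.3 CPM in siZEB1 (log2 fold change -0.05, 95% interval -0.17 to 0.07). MCM4 was at 531.0, 562.9 and 497.8 CPM in siNC and 518.9, 508.3 and 534.4 CPM in siZEB1 (-0.03, interval -0.15 to 0.09). The 3 knockdown values of MCM4 all lay inside the range of the controls. MCM5 was at 149.7, 161.2 and 169.6 CPM in siNC and 166.0, 155.3 and 144.2 CPM in siZEB1 (-0.05, interval -0.19 to 0.10). MCM6 was at 299.2, 295.6 and 282.4 CPM in siNC and 301.2, 293.4 and 299.3 CPM in siZEB1 (0.03, interval -0.09 to 0.14). In both genes the cultures were mixed in order. MCM7 was at 599.9, 615.6 and 657.7 CPM in siNC and 627.1, 615.6 and 575.8 CPM in siZEB1 (-0.04, interval -0.16 to 0.07). The adjusted p-values of these 5 subunits lay between 0.534 and 0.729, and their intervals together span -0.19 to 0.14 on the log2 scale. Exons of MCM2 and MCM7 overlap genes on the opposite strand over 23.6% and 8.94% of their bases. The strand setting of the counting is not known, so counts there are uncertain.

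**Figure D3:**
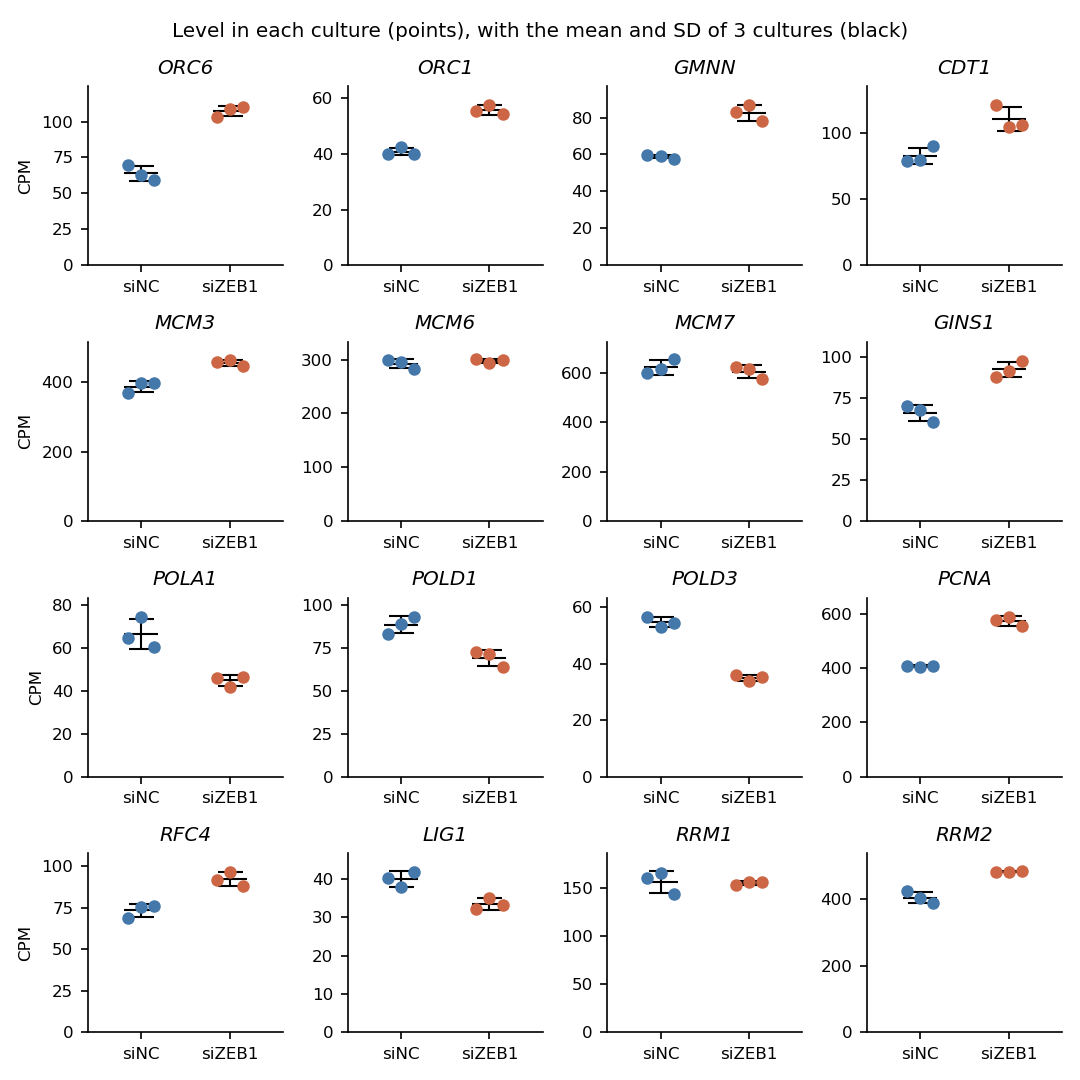
Level of selected replication genes in each culture, in CPM (y axes, starting at 0), with 1 point per culture and the mean and SD of 3 cultures in black. ORC6, ORC1, GMNN, CDT1, MCM3, GINS1, PCNA, RFC4 and RRM2 are higher in every siZEB1 culture, POLA1, POLD1, POLD3 and LIG1 are lower, and MCM6, MCM7 and RRM1 overlap.

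Within the ring, MCM3 took 22.9% ± 0.61 of the summed level of MCM2 to MCM7 per kilobase of exon in siNC and 26.3% ± 0.30 in siZEB1 (SD, n = 3). MCM7 took 30.66% ± 1.26 and 28.98% ± 0.79. Both shares were apart between groups (exact permutation test, two-sided, p = 0.1, the smallest this design allows), and the other 4 shares overlapped. These shares are parts of the same total, so a larger share of MCM3 lowers the others. The level of MCM7 itself was not called. The summed level of the 6 subunits was 464.2 ± 8.86 CPM per kilobase in siNC and 476.7 ± 8.31 in siZEB1 (exact permutation p = 0.2), with overlapping cultures. Although the encoded proteins form a ring with equal numbers of each subunit, their mRNAs were far from equal: in siNC the order per kilobase of exon was MCM7 (142.4 ± 6.81), MCM3 (106.3 ± 4.69), MCM4 (76.1 ± 4.67), MCM6 (71.0 ± 2.15), MCM2 (46.7 ± 1.66) and MCM5 (21.8 ± 1.36 CPM per kilobase). The ranges of mean ± SD of MCM4 and MCM6 overlapped, and those of the other neighbours did not. With the longest transcript as the length, MCM4 (126.8 ± 7.78) and MCM3 (120.9 ± 5.34) changed places and did not differ beyond their SDs. The MCM6 promoter is shown as the window with the most E2F-type matches among those printed, 4 matches in overlapping pairs, in a gene that was not called.
MCM6, chr2:135876394-135876693, minus strand: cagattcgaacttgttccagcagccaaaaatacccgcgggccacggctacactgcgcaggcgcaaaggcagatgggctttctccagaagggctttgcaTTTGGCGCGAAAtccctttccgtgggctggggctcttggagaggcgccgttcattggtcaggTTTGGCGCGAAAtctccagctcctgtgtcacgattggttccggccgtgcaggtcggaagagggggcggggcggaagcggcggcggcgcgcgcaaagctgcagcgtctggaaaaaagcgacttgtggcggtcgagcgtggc

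CDC45, the helicase partner that binds the ring upon firing, was at 30.8, 31.7 and 33.7 CPM in siNC and 33.6, 36.2 and 31.0 CPM in siZEB1, with overlapping groups (log2 fold change 0.07, interval -0.10 to 0.24, adjusted p = 0.531). GINS1, on chromosome 20 (25407727 to 25452628, plus strand), was at 69.8, 67.5 and 60.2 CPM in siNC and 87.8, 91.5 and 97.3 CPM in siZEB1. All knockdown cultures were above all controls (log2 fold change 0.48, SE 0.07, adjusted p = 4.60e-05). Its partners GINS2 and GINS4 overlapped between groups, at log2 fold changes of 0.07 and 0.06. GINS3 was at 22.5 to 24.6 CPM in siNC and 19.6 to 21.6 CPM in siZEB1, apart but not called (log2 fold change -0.20, adjusted p = 0.071). The share of GINS1 went from 35.1% ± 2.27 to 42.5% ± 2.16 of the summed GINS level per kilobase, and that of GINS3 from 9.97% ± 0.59 to 7.52% ± 0.39 (SD, n = 3; exact permutation p = 0.1 for each). Exons of GINS4 and GINS3 overlap opposite-strand genes over 23.6% and 10.9% of their bases. MCM10, an initiation factor that binds the helicase, was not called (log2 fold change -0.04, adjusted p = 0.676). The GINS1 promoter is shown with its E2F-type match in capitals, 6 bases after the RefSeq start. The GENCODE start given above, 25407727, lies beyond the end of this window, so the match lies before that start.
GINS1, chr20:25407423-25407722, plus strand: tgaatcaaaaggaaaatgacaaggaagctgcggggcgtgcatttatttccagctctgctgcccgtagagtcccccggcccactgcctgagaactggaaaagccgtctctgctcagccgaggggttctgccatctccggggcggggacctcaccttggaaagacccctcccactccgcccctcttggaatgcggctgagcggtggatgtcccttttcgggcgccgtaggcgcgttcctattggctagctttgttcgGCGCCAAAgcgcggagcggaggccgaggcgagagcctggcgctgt

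Among the primase and polymerases, the mRNAs of POLD3, POLA1, POLD1 and POLD2 fell. None of the 9 rose, where 19.0% of all genes tested did. The count of rises was 0 with edgeR, DESeq2 and limma-voom, with 1 (POLE) at an unadjusted p under 0.05. POLD3, an accessory subunit of polymerase delta that carries a PCNA-binding stretch, is on chromosome 11 (74493851 to 74669117, plus strand, ENSG00000077514). It was at 56.6, 53.1 and 54.5 CPM in siNC and 35.9, 34.0 and 35.4 CPM in siZEB1. The controls and the knockdown cultures each varied little and were far apart. This was the largest fall in the set, at -0.64 on the log2 scale (SE 0.07, adjusted p = 1.54e-06).

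POLA1, the catalytic subunit of polymerase alpha, was at 64.6, 74.2 and 60.2 CPM in siNC and 45.9, 41.8 and 46.6 CPM in siZEB1 (log2 fold change -0.57, SE 0.08, adjusted p = 3.30e-05). POLD1, the catalytic subunit of polymerase delta, fell from 88.4 ± 4.88 to 69.2 ± 4.64 CPM (SD, n = 3; log2 fold change -0.35, adjusted p = 7.84e-04), with 8.64% of its exonic bases shared with another gene on its strand. POLD2, a second accessory subunit of polymerase delta, fell from 228.5 ± 14.4 to 203.4 ± 10.9 CPM (log2 fold change -0.17, adjusted p = 0.0442), but this call was lost in 8 of 13 alternatives, among them leaving out any culture except siNC replicate 1, with an adjusted p of up to 0.155. All 3 subunits of polymerase delta in the set were thus called lower, POLD2 only near the threshold. POLD4, a further subunit outside the set, was not called (log2 fold change 0.16, interval -0.59 to 0.91, adjusted p = 0.748). Its mean level was 0.73 CPM in siNC and 0.80 CPM in siZEB1. The ratio of POLD3 to POLD1 per kilobase was 0.557 ± 0.046 in siNC and 0.455 ± 0.036 in siZEB1, without overlap (exact permutation p = 0.1). The partners of POLA1 were not called. POLA2, PRIM1 and PRIM2, the regulatory subunit of polymerase alpha and the primase pair, had log2 fold changes of -0.02, 0.08 and 0.09 with adjusted p-values of 0.308 to 0.921. POLA2 was the least abundant gene of the set at 4.957 to 7.003 CPM, its interval of -0.34 to 0.29 was the widest, and 35.1% of its exonic bases are shared with another gene on its strand.

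The subunits of polymerase epsilon in the set, POLE and POLE2, were not called. POLE, the catalytic subunit, was at 80.98 to 97.97 CPM in siNC and 97.3 to 102.8 CPM in siZEB1 (log2 fold change 0.16, adjusted p = 0.0863), and passed the threshold only when siNC replicate 2 was left out (0.23, adjusted p = 0.0382). POLE2, its second subunit, differed by -0.04 on the log2 scale (adjusted p = 0.744). The POLA1 promoter is shown with its E2F-type match in capitals, 137 bases before the start. It holds the same letters as the match of GINS1 (GCGCCAAA), in a gene that fell instead of rising.
POLA1, chrX:24693668-24693967, plus strand: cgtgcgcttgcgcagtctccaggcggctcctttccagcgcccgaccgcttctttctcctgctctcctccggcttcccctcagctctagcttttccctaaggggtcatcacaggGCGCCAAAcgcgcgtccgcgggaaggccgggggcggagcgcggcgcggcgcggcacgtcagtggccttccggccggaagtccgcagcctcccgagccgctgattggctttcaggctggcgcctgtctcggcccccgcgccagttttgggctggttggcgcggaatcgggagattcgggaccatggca

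Of the clamp and clamp loader genes, 4 of 6 rose (66.7%, against 19.0% of all genes tested). PCNA rose by 1.41-fold, and RFC1, RFC3 and RFC4 rose as well. None of the 6 genes fell, where 21.2% of all genes tested did. That count was also 0 at an unadjusted p under 0.05, with DESeq2 and with limma-voom. PCNA lies on chromosome 20 (5114953 to 5126626, minus strand, ENSG00000132646). It was at 408.4, 403.1 and 407.2 CPM in siNC and 577.5, 587.0 and 553.9 CPM in siZEB1. The controls lay close together and the knockdown cultures were all far above them (log2 fold change 0.50, SE 0.05, adjusted p = 7.88e-07). Per kilobase of exon PCNA was also the most abundant mRNA of the set, at 276.2 ± 1.92 CPM per kilobase in siNC and 389.4 ± 11.6 in siZEB1 (SD, n = 3).
PCNA, chr20:5126573-5126872, minus strand, with its E2F-type match in capitals 59 bases before the start: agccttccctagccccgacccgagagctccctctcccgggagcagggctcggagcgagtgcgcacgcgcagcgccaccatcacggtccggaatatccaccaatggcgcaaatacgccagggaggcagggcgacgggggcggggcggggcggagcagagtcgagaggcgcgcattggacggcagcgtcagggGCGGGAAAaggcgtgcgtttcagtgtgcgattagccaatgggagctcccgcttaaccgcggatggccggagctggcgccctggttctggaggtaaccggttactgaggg

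RFC1, the large subunit of the clamp loader, was at 121.6, 122.2 and 100.7 CPM in siNC and 148.3, 149.3 and 152.8 CPM in siZEB1 (log2 fold change 0.39, SE 0.07, adjusted p = 4.24e-04). RFC4, a small subunit, rose from 73.4 ± 4.13 to 92.15 ± 4.201 CPM (SD, n = 3; log2 fold change 0.33, adjusted p = 9.38e-04). Neither gene had overlapping groups. RFC3 rose from 108.4 ± 8.14 to 122.6 ± 2.51 CPM (log2 fold change 0.18, adjusted p = 0.0429), a call also lost in 8 of 13 alternatives, again on leaving out any culture except siNC replicate 1, with an adjusted p of up to 0.145. RFC5 had nearly the same log2 fold change, 0.18, but missed the threshold (adjusted p = 0.0569) and passed it in 3 of 13 alternatives (median-of-ratios scaling, without siNC replicate 1 and without siNC replicate 3, adjusted p down to 0.0249). For this gene 10.7% of its exonic bases lie opposite other genes. RFC2 was not called (0.06, adjusted p = 0.569).

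Summed over the 5 loader subunits, the level was 134.9 ± 1.075 CPM per kilobase in siNC and 155.1 ± 2.68 in siZEB1, without overlap. The ratio of PCNA to the summed loader was 2.05 ± 0.01 in siNC and 2.51 ± 0.03 in siZEB1 (SD, n = 3; exact permutation p = 0.1, the smallest possible). The promoters of RFC1 and RFC4 are shown as the other genes that rose and held an E-box, here read on the opposite strand as CACCTG, in capitals in stretches of 81 bases. Those of RRM1 and TYMS, which held it and were not called, are not shown. The match lay 84 bases before the start in RFC1, 113 before it in RFC4 and 26 after it in ORC4.
RFC1, chr4:39366403-39366483, minus strand: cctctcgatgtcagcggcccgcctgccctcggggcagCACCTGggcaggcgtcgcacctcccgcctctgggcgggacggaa
RFC4, chr3:186806552-186806632, minus strand: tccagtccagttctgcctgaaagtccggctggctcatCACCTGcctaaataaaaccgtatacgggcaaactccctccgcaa

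**Figure D4:**
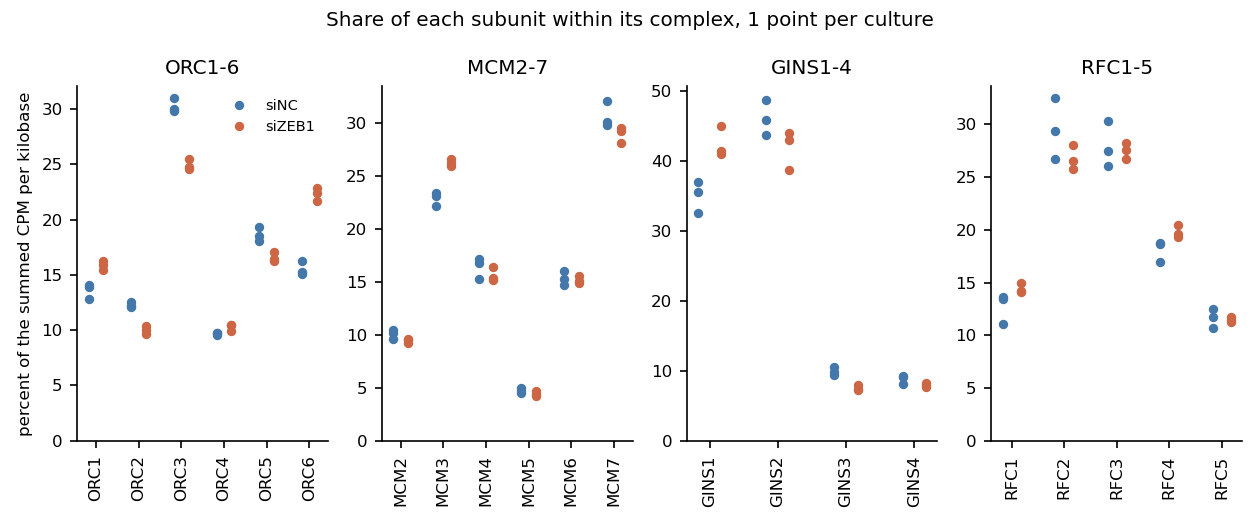
Share of each subunit in the summed level of its complex, in percent of CPM per kilobase of exon (y axes), with 1 point per culture for MCM2 to MCM7, ORC1 to ORC6, GINS1 to GINS4 and RFC1 to RFC5. MCM3, ORC6 and GINS1 take a larger share in every siZEB1 culture, and ORC3 and GINS3 a smaller one. Shares within a complex are parts of the same total and depend on each other.

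Of the factors for Okazaki fragments and single-stranded DNA, RPA3 rose and LIG1 fell. RPA3, the smallest subunit of the single-strand binding protein, was at 35.8, 33.9 and 30.6 CPM in siNC and 42.16, 44.99 and 36.99 CPM in siZEB1 (log2 fold change 0.31, SE 0.09, adjusted p = 0.00951). LIG1, the ligase that seals Okazaki fragments, was at 40.3, 37.8 and 41.7 CPM in siNC and 32.1, 35.1 and 33.2 CPM in siZEB1 (log2 fold change -0.25, SE 0.08, adjusted p = 0.0122). In both genes the groups were apart by small margins. The call of RPA3 was lost without siZEB1 replicate 2 (adjusted p = 0.0657) and that of LIG1 without siZEB1 replicate 1 (adjusted p = 0.0699). The larger RPA subunits RPA1 and RPA2 and the flap nuclease FEN1 overlapped between groups, with log2 fold changes of -0.03, 0.05 and 0.06 and adjusted p-values of 0.439 to 0.723.

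In nucleotide supply, RRM2 rose and the other genes were not called. RRM2, the small subunit of ribonucleotide reductase, whose level is known to follow S phase, was at 422.6, 403.4 and 387.7 CPM in siNC and 481.4, 481.3 and 483.6 CPM in siZEB1. The groups were apart (log2 fold change 0.25, SE 0.05, adjusted p = 0.00102), with 20.2% of its exonic bases shared with another gene on its strand. RRM1, the large subunit, was at 160.4, 165.0 and 143.1 CPM in siNC and 153.1, 156.5 and 156.2 CPM in siZEB1 (log2 fold change -0.01, interval -0.14 to 0.13, adjusted p = 0.931). The ratio of RRM2 to RRM1 per kilobase was 2.04 ± 0.11 in siNC and 2.44 ± 0.03 in siZEB1, without overlap (exact permutation p = 0.1).

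TYMS, thymidylate synthase, was at 20.2, 20.7 and 21.1 CPM in siNC and 23.8, 23.0 and 20.6 CPM in siZEB1 (log2 fold change 0.12, interval -0.06 to 0.31, adjusted p = 0.269). Opposite-strand genes overlap 46.6% of its exonic bases, so its counts are uncertain if the counting ignored strand. TK1, thymidine kinase, was at 95.5, 99.1 and 104.8 CPM in siNC and 95.03, 106.6 and 86.1 CPM in siZEB1 (log2 fold change -0.06, interval -0.22 to 0.10, adjusted p = 0.584). Both genes had overlapping groups, and the knockdown cultures of TK1 were the more spread. Processed pseudogenes of POLD2, PCNA, RFC3, RRM2 and TYMS were listed with 0 to 3 counts in each culture.

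Other genes that act with the replication machinery included larger changes of single genes. Of 10 origin firing factors, 3 rose and 4 fell (70.0% called, against 40.2% of all genes tested). DBF4, the activating subunit of the CDC7 kinase, fell from 141.4 ± 5.14 to 89.1 ± 5.07 CPM (SD, n = 3; log2 fold change -0.67, adjusted p = 4.35e-07), while CDC7 itself rose (0.27, adjusted p = 0.00383). DONSON and TICRR, which help to assemble the helicase, rose by 0.38 and 0.27 on the log2 scale, and LRWD1, a protein associated with the origin recognition complex, and TOPBP1, a scaffold of helicase activation, changed by -0.54 and -0.27. The kinase subunit and its activator thus moved in opposite directions.

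Of 20 fork protection and cohesion factors, 18 were tested, 5 rose and 3 fell (44.4% called, near the 40.2% of all genes tested). TIPIN (0.41) and POLE3 (0.34), a fork protection factor and a small subunit of polymerase epsilon, rose. DNA2, a nuclease of the lagging strand, also rose (0.27, adjusted p = 0.0165), a call lost without siNC replicate 3 and without siZEB1 replicate 3 (adjusted p up to 0.0595). CHTF18, of the alternative clamp loader, TOP1, a topoisomerase, and RNASEH2C, a subunit of ribonuclease H2, fell (-0.66, -0.55 and -0.50). TOP2A, the topoisomerase of proliferating cells, had a log2 fold change of 0.19 (adjusted p = 0.027), a call lost with a replicate block and without siNC replicate 3, siZEB1 replicate 1 or siZEB1 replicate 3, with an adjusted p of up to 0.107. CHTF8 and RNASEH2A had too few counts to be tested.

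Of 11 chromatin factors that work behind the fork, 5 rose and 3 fell (72.7% called, against 40.2% of all genes tested). UHRF1, which brings the maintenance DNA methyltransferase to new DNA, fell from 373.0 ± 6.37 to 145.2 ± 6.96 CPM (log2 fold change -1.36, adjusted p = 1.31e-11), further than any gene of the replication set. The histone chaperones split: ASF1B (0.72), SUPT16H (0.60) and CHAF1A (0.28) rose, and CHAF1B (-0.53) and ASF1A (-0.27) fell. CHAF1A and CHAF1B, subunits of the same chaperone CAF-1, thus changed in opposite directions.

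Of 26 other nucleotide synthesis genes, 6 rose and 8 fell (53.8% called, against 40.2% of all genes tested). PAICS, an enzyme of purine synthesis, fell from 582.5 ± 12.4 to 244.8 ± 6.05 CPM (log2 fold change -1.25, adjusted p = 1.31e-11), and ADSS2 (-0.77) and PFAS (-0.50), also of purine synthesis, fell. The largest rises were those of CTPS2 (0.52), TK2 (0.49) and DCTD (0.37), of pyrimidine supply. The other rises, DUT (0.30), CAD (0.26) and CMPK1 (0.22, a call kept in 9 of 13 alternatives), were also of pyrimidine supply. The purine genes IMPDH1 (-0.45) and IMPDH2 (-0.25) fell, and no purine gene was called higher. The division by pathway was incomplete: the pyrimidine genes CTPS1 (-0.41) and DHODH (-0.37) fell. The pyrimidine genes UMPS and DTYMK and the purine genes GART, PPAT, ATIC, GMPS and ADSL were not called. Genes named here beyond the 3 largest changes each way were chosen after their values were seen. The call of TK2, at 4.94 ± 1.06 CPM in siNC and 6.99 ± 0.53 CPM in siZEB1, was lost without siNC replicate 3 and without siZEB1 replicate 2 (adjusted p up to 0.0744).

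Of 20 E2F regulators and targets, 5 rose and 3 fell (40% called, against 40.2% of all genes), at a median log2 fold change of 0.02. CDC25A (0.44), CDK2 (0.42), RBL1 (0.38) and E2F1 (0.28, adjusted p = 0.00421) rose. CCNE1, the cyclin that activates CDK2 at the start of S phase, fell from 25.7 ± 1.29 to 12.5 ± 0.97 CPM (log2 fold change -1.04, adjusted p = 1.37e-07), and E2F5 (-0.76) and MYBL2 (-0.41) fell with it. Of 22 G2 and mitosis genes tested, 12 rose (54.5%, against 19.0% of all genes) and 1 fell. BIRC5 (0.70), CENPA (0.48) and AURKB (0.44) led the rises, and UBE2C (-0.39) fell. MKI67, the proliferation marker, was at 753.6 ± 57.0 CPM in siNC and 697.3 ± 50.1 CPM in siZEB1 (log2 fold change -0.11, interval -0.25 to 0.02, adjusted p = 0.177), and passed the threshold only without siNC replicate 3 (adjusted p = 0.0267). The part of these cell cycle genes in the changes of the replication genes was not tested.

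**Figure D5:**
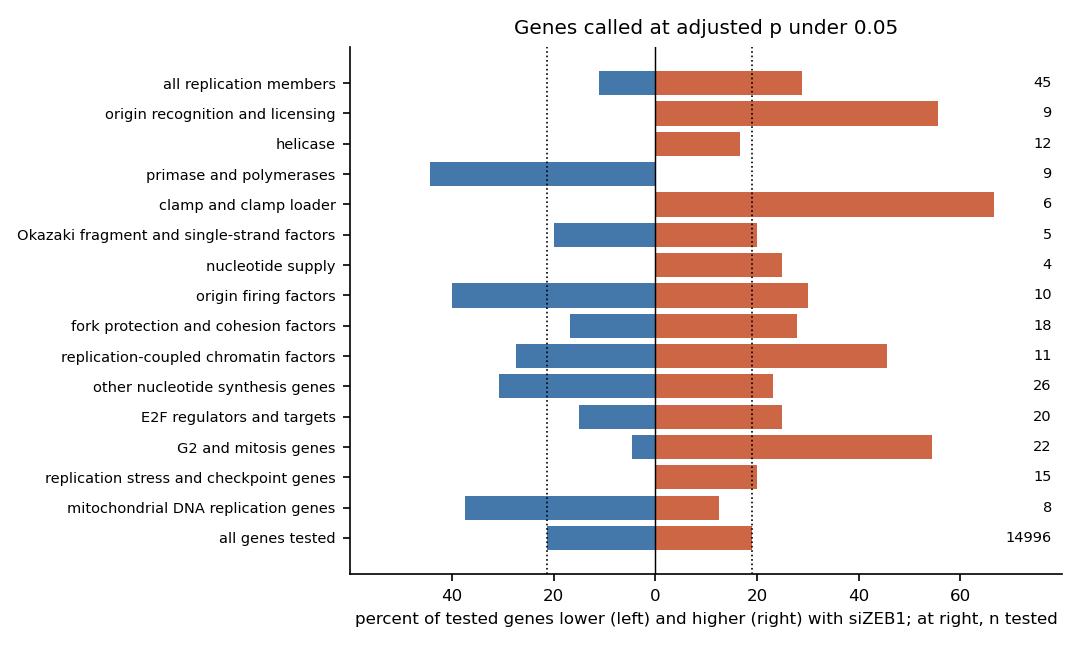
Percent of the tested genes of each list that were called lower (left) or higher (right) in siZEB1 at an adjusted p under 0.05, with the number tested at the far right and dotted lines at 21.2% and 19.0%, the shares of all genes tested. Licensing, clamp and mitosis lists extend to the right and the polymerases to the left, on small numbers of genes.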

How the data were processed

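Total RNA from 3 siNC and 3 siZEB1 cultures was sequenced. The authors deposited 1 table of raw read counts per Ensembl gene for each culture. The submitters' processing notes name Trimmomatic, HISAT2, SAMtools, featureCounts and hg38, while the annotation, versions and strand setting were not given in the sources used here. Total counts of 19040636 to 22357633 per culture limit precision mainly for genes at a few CPM.

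Groups came from the labels. Counts were fitted with edgeR 4.0.16 (R 4.3.3) by TMM scaling, filterByExpr, glmQLFit and glmQLFTest, two-sided, with Benjamini-Hochberg adjustment over 14996 genes, and a call is an adjusted p under 0.05. TMM factors were 0.989 to 1.01. The SE is the log2 fold change over the root of F, and intervals are 95%. CPM used TMM-scaled library sizes, and levels per kilobase used merged exons of GENCODE 29 unless the longest transcript is named. Subunit shares, summed levels and ratios used merged exons only, and their sizes depend on that length. Promoters came from RefSeq (GRCh38.p14), and the first window holding the motif was printed.

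DESeq2 1.42.0, limma-voom (limma 3.58.1), other scalings and filters, a replicate block and leaving out each culture were alternatives. No 2 cultures agreed within sampling noise.

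The replication genes, roles and other lists were chosen with earlier results of these data known. Values in every culture are given, in each role, for up to 2 called genes with the largest change each way, and for MCM2 to MCM7, PCNA, CDC45, RRM1, RRM2, TYMS and TK1. From each other list up to 3 called genes each way are named, with MKI67, E2F1 and TOP2A. A further gene of this rule is not reported here. Other genes, the subunit shares and the ratios were chosen after their values were seen. Sequences of proteins were not used here.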

Additional observations from a re-analysis of the deposited data

How the results depend on the processing

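Of the 18 called replication genes, 14 kept their call in all 13 alternative fits, and no call turned its direction in them. Leaving out 1 culture gave 11 to 14 rises and 3 to 5 falls among them, with the 3 falls found without siZEB1 replicate 1, and 2293 to 2928 rises and 2617 to 3284 falls over all genes. The median log2 fold change of the set ranged from 0.0357 without siZEB1 replicate 2 to 0.0885 without siZEB1 replicate 3 (0.0737 without siNC replicate 3), against 0.0576 with all cultures, and that of ZEB1 from -2.95 to -2.79. Under the rule of a fold above 1.5 with an unadjusted p under 0.05, the set had 1 rise and 1 fall, and all genes 1081 rises and 1402 falls. With p under 0.001, as the study's methods have it and added after the data were seen, the set again had 1 rise and 1 fall, and all genes 678 and 1004. At an adjusted p under 0.01 the set had 12 rises and 3 falls. Same-numbered cultures did not deviate together (correlations of -0.052, -0.088 and -0.2), and no culture correlated best with its own number, so the numbers were not taken to pair the samples. With a replicate block there were 12 rises and 3 falls in the set, the calls of RFC3, POLD2 and LIG1 being lost, a set median of 0.0612, and 2289 rises and 2679 falls over all genes. Of 39 genes, 14 held an E2F-type motif when only the 200 bases before the start were read. The highest MCM level per kilobase was 6.52 times the lowest by exon length and 5.81 times by longest transcript.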

Other observations

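The checkpoint and mitochondrial replication genes gave values that belong to no comparison above. Of 15 replication stress and checkpoint genes, 3 rose and none fell by edgeR, with 5 higher and 1 lower at an unadjusted p under 0.05 and 3 and 0 by both DESeq2 and limma-voom. The share that rose, 20%, was near the 19.0% of all genes tested. The 3 were WEE1, the kinase that restrains CDK1 (88.4 ± 1.24 to 113.8 ± 3.61 CPM, SD, n = 3; log2 fold change 0.36, adjusted p = 1.51e-04), RAD17, which loads the checkpoint clamp (0.34, adjusted p = 0.0021), and CHEK1, the effector kinase of ATR (0.27, adjusted p = 0.00118). ATR signalling restrains origin firing when forks stall.

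Of 8 genes that replicate mitochondrial DNA, 3 fell and 1 rose, 50% of them against 40.2% of all genes called. MGME1, a mitochondrial exonuclease, fell from 57.5 ± 2.44 to 37.4 ± 2.89 CPM (log2 fold change -0.62, adjusted p = 5.26e-06) and POLRMT, the mitochondrial RNA polymerase that makes replication primers, from 145.7 ± 13.8 to 119.2 ± 5.08 CPM (-0.29, adjusted p = 0.0038). TWNK, the mitochondrial helicase, fell by 0.17 on the log2 scale (adjusted p = 0.0314), a call kept in 6 of 13 alternatives. TOP1MT, the mitochondrial topoisomerase, rose (0.40, adjusted p = 7.96e-04). Mitochondrial transcripts took 3.75% to 4.03% of counts in siNC and 3.598% to 3.664% in siZEB1, and their part in these changes was not tested.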
